A study of Mus musculus with 6 samples.

Results

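This account covers 10 genes of proteolysis at the cell surface together with CD44 and its ligand osteopontin, in RAW 264.7 cells with and without an APOBEC1 knockout. They are the rows of the deposited table named Cd44, Spp1, Plau, Plaur, Mmp12, Mmp14, Mmp19, Adam8, Timp1 and Timp2, and all 10 were found among its 24848 gene symbols. RAW 264.7 cells are mouse macrophages transformed by the Abelson leukaemia virus, and APOBEC1 is a cytidine deaminase that edits C to U in RNA. RNA sequencing gave 3 libraries of APOBEC1 knockout cells (KO) and 3 of unmodified cells (WT), each from RNA of its own culture plate and all grown in the same medium with no other agent recorded. The labels do not say how the knockout was made, which change the gene carries or how many clones were used, so effects of the genotype cannot be told apart from any other difference between the cell populations. The p-values refer to variation among plates.

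Macrophages cut the matrix around them with proteases held at or released from the cell surface. The urokinase-type plasminogen activator, bound to its receptor, turns plasminogen into plasmin, while metalloproteinases of the MMP and ADAM families cleave matrix proteins and membrane proteins and are held in check by tissue inhibitors of metalloproteinases (TIMPs). CD44 is the main receptor for the matrix polysaccharide hyaluronan, it also binds osteopontin, the secreted glycoprotein encoded by Spp1, and metalloproteinases shed its outer domain.

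The promoters of 5 members are printed here because these members moved in both directions. RefSeq held a window of 300 bases, from 250 bases before to 50 bases after a start site on build GRCm38.p6 (mm10), for 8 of the 10 members, and 10 windows in all. Capitals mark every match to TGANTCA, the core letters of the AP-1 element, and to AGGAAG, a core of the ETS family, each searched on both strands (the opposite strand of AGGAAG reads CTTCCT). The matches do not overlap each other. The windows are chr2:102901616-102901915 on the minus strand for Cd44, chr7:24462233-24462532 on the plus strand for Plaur, chr9:7344147-7344446 and chr9:7347124-7347423 on the plus strand for both starts of Mmp12, chr5:104434861-104435160 on the plus strand for Spp1, and chr11:118355362-118355661 on the minus strand for Timp2.
Cd44: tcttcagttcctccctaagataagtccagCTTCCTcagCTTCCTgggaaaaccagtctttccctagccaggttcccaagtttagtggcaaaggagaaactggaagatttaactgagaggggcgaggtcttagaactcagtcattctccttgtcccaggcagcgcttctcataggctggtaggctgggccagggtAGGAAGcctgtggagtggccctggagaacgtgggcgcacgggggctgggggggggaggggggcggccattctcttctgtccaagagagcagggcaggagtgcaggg
Plaur: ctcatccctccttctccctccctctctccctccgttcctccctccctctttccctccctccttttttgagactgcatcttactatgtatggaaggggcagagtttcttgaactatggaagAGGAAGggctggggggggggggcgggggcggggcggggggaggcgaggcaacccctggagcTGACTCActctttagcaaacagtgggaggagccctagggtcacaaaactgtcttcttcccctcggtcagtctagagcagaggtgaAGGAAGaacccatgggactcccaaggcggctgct
Mmp12, first start: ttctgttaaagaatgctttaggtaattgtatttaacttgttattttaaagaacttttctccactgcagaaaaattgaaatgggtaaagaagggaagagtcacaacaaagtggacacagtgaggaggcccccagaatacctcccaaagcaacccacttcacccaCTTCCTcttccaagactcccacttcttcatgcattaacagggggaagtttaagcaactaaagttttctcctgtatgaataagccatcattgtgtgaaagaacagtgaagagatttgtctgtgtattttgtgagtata
Mmp12, second start: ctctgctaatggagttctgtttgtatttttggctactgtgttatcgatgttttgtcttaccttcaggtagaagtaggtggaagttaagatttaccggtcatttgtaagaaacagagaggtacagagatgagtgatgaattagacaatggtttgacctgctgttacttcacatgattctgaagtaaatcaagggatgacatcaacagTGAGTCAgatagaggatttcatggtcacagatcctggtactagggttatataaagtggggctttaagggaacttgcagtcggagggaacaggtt
Spp1: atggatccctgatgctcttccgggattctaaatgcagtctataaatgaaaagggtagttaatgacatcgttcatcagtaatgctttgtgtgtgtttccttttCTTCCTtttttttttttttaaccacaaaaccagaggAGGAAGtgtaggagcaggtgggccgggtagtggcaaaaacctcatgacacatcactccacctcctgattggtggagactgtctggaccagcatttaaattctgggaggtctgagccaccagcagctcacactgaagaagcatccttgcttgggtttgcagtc
Timp2: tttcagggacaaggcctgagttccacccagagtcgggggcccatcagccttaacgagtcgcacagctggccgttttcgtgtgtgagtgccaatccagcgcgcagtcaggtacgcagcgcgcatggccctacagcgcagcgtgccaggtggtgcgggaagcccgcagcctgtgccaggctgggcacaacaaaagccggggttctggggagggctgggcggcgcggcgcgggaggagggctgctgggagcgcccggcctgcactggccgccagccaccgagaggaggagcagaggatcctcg

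TGANTCA was found in 2 of the 10 windows of members, against 7.81% of all 32851 windows in the RefSeq table. Both belonged to genes that were higher in KO cells, while Cd44 and Adam8, also higher, held no match to TGANTCA. Plau and Mmp19 had no window and were not searched. A link of the motif to the direction of change was not tested. Plaur held it at positions -69 to -63 from the start site and Mmp12 at -44 to -38 from its second start. AGGAAG was found in 7 of the 10 windows, against 35.4% of all windows. These were the windows of Cd44, Plaur, Mmp14 and Timp1, both of Spp1 and the first of Mmp12. Of these genes, Mmp14 and Timp1 could not be compared between genotypes. Cd44 held 3 matches, at -221 to -216, -212 to -207 and -56 to -51, and the first window of Spp1, which was lower in KO cells, held 2. Timp2 and Adam8 held neither motif. Timp2 had the most CpG-rich window, with 25 CpG dinucleotides and 68.7% GC, against medians of 7 and 52.7% over all windows, and the first window of Mmp12 had 0 CpG and 38.7% GC. The letters are those of the reference genome and not of these cells, and a match was not tested as a binding site.

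Between 50493447 and 70411383 reads per library were assigned to genes, and levels are given in CPM (reads of a gene scaled to a common library total), with the SD of the 3 libraries. The ribosomal RNA precursor Rn45s took 0.542% to 1.40% of reads in KO libraries and 0.381% to 2.75% in WT libraries. Apobec1 itself stood at 339, 340.1 and 361 CPM in KO libraries, against 373, 431 and 396 CPM in WT libraries. Its log2 fold change in limma was -0.20 ± 0.07 (SE, adjusted p = 0.0663), which was not called. It was called lower under 4 of 19 alternatives. These were limma without WT replicate 1 (-0.25, adjusted p = 0.0169), without Rn45s (-0.22, 0.0409) and with quantile normalization (-0.27, 0.0132), and DESeq2 (-0.18, 0.0327). Relative to the median of its chromosome 6, which was -0.16, the change was -0.045 (adjusted p = 0.658). Its transcript persisted in the KO libraries, so its level does not check the labels. All 10 macrophage markers listed for this work were present. Their summed level was 4264 to 4767 CPM in KO and 4025 to 4248 CPM in WT libraries. Of these 10, 2 were called higher in KO (Lyz2 1.75-fold and Spi1 1.31-fold) and 2 lower (Adgre1 1.42-fold and Fcgr1 1.23-fold). The summed markers of fibroblasts, epithelial cells and T cells stayed at or under 0.119 CPM in every library. Among them, 4 fibroblast, 2 epithelial and 2 T cell markers are listed at 0 in all libraries. Such a 0 may be a row that was not counted, so these markers do not show that the cell types were absent. Neutrophil markers summed to 3.12 to 4.55 CPM in KO libraries and 0.856 to 1.07 CPM in WT libraries, all of it from S100a8, and B cell markers to at most 0.156 CPM in KO and 0.317 CPM in WT.

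Of the 10 members, 8 passed the filter, which asked for 1 CPM or more in 3 or more of the 6 libraries. In KO cells 5 of these 8 were higher (Plau, Plaur, Adam8, Mmp12 and Cd44) and 3 were lower (Timp2, Mmp19 and Spp1), at an adjusted p under 0.05 in limma over all 10614 tested genes. The background was 30.4% of the tested genes called, made up of 13.5% higher and 16.9% lower. For each of the 8, all KO libraries lay on the same side of all WT libraries, and 46.4% of all tested genes had groups without overlap. Mmp12 passed the filter through its KO libraries only and so had to differ. The members were chosen with earlier results of these data known, so the share of members called is a description. Fold changes are KO against WT on log2(CPM + 0.5), which understates changes of genes at low levels, and are given with their SE.

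**Figure D1:**
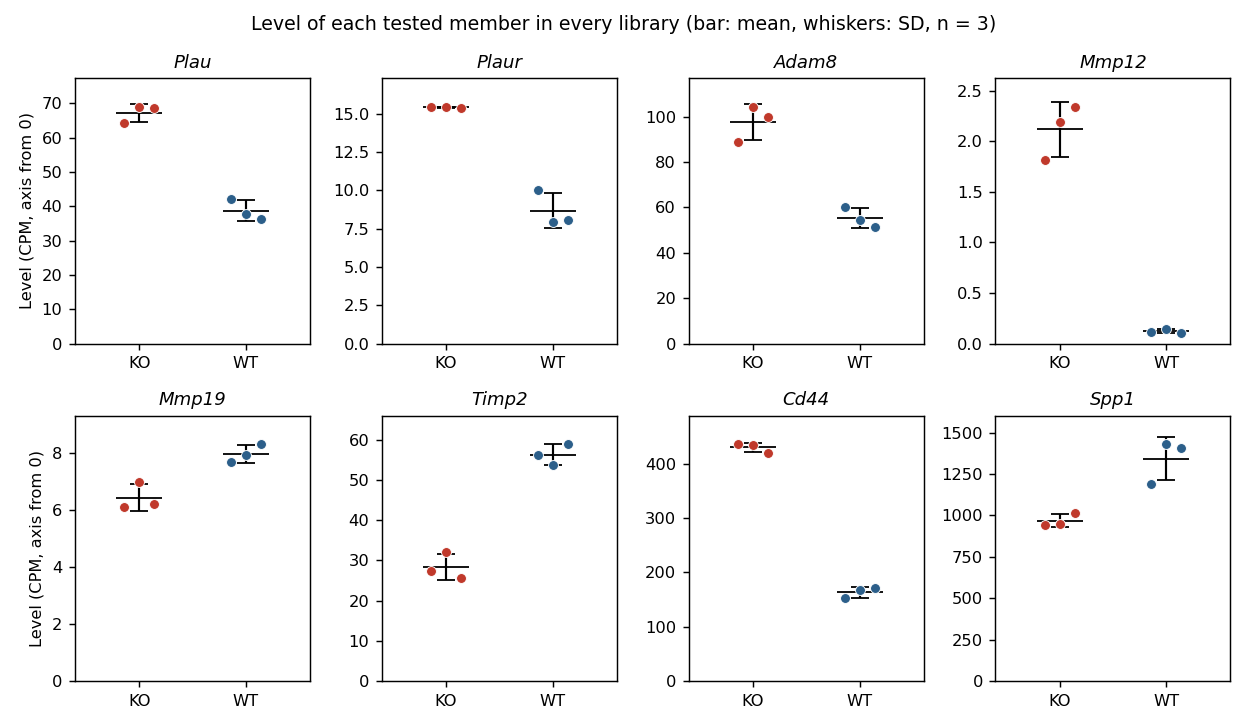
Level in CPM (vertical axes, each from 0) of the 8 tested members in each library, with KO on the left and WT on the right of each panel; points are libraries, the long bar is the mean and whiskers are the SD (n = 3). The KO points lie above all WT points for Plau, Plaur, Adam8, Mmp12 and Cd44 and below them for Mmp19, Timp2 and Spp1.

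The plasminogen activator and its receptor rose together. Gene positions are those of GENCODE M21 on mm10. Plau (ENSMUSG00000021822.3, chromosome 14, 20836660 to 20843385, plus strand) encodes urokinase, the secreted serine protease that activates plasminogen. It stood at 64.2, 68.9 and 68.5 CPM in KO libraries, against 42.0, 37.8 and 36.2 CPM in WT libraries. The lowest KO library lay well above the highest WT library. The means were 67.2 ± 2.61 CPM in KO and 38.7 ± 2.99 CPM in WT, 1.74-fold higher in KO (log2 fold change 0.79 ± 0.08, adjusted p = 0.000217).

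Plaur (ENSMUSG00000046223.10, chromosome 7, 24462484 to 24475968, plus strand) encodes the lipid-anchored urokinase receptor that holds the protease at the membrane. Its level was 15.5, 15.4 and 15.4 CPM in KO libraries, against 10.001, 7.94 and 8.08 CPM in WT libraries. The 3 KO libraries were almost alike, and WT replicate 1 was the highest of the WT libraries without reaching them. Plaur was 1.78-fold higher in KO (log2 fold change 0.80 ± 0.10, adjusted p = 0.000846). The ratio of Plau to Plaur within a library, which no scaling between libraries can change, was 4.36 ± 0.178 in KO and 4.48 ± 0.283 in WT in CPM. On a log2 scale the ratios differed by -0.04, from -0.08 to 0.01 when any 1 library was left out, which is within the spread between libraries (exact two-sided permutation p = 0.4, adjusted p = 0.4 over 3 such ratios). With 3 libraries against 3, the smallest p this test allows is 0.1.

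Other genes of plasminogen activation gave 1 call among 4, a number too small to set apart from the background. That background, for this and each later list, was 30.4% of all tested genes called (13.5% higher and 16.9% lower). Of 15 listed symbols 6 were tested, and besides Plau and Plaur 1 was higher, 0 were lower and 3 were not called. The median log2 fold change of the 4 genes other than the members was 0.06, against -0.02 for all tested genes. Lrp1, the endocytic receptor that clears urokinase bound to its receptor and inhibitor, was at 438 ± 76.1 CPM in KO and 323 ± 25.6 CPM in WT (log2 fold change 0.43 ± 0.13, adjusted p = 0.0376). That call did not hold under 6 of 19 alternatives, which included fits without KO replicate 2 (adjusted p = 0.110), without KO replicate 3 (adjusted p = 0.103) and without WT replicate 3 (adjusted p = 0.124). The count of 0 lower also held at an unadjusted p under 0.05, by limma, edgeR and DESeq2. The genes of the plasminogen-binding complex of annexin A2 and S100A10 were not called, with log2 fold changes of -0.07 for Anxa2 and 0.18 for S100a10 (adjusted p = 0.520 and 0.120). Both were named after their values were seen.

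Adam8 was the surface metalloproteinase that rose most among the tested ADAM genes. Adam8 (ENSMUSG00000025473.16, chromosome 7, 139978932 to 139992562, minus strand) encodes a membrane-anchored ADAM protease of leukocytes that sheds surface proteins. Its level was 88.7, 104 and 99.7 CPM in KO libraries, against 60.0, 54.2 and 51.6 CPM in WT libraries. Every KO library was above every WT library, and KO replicate 1 was the lowest of the KO libraries. The means were 97.5 ± 8.04 CPM in KO and 55.3 ± 4.32 CPM in WT, 1.76-fold higher in KO (log2 fold change 0.81 ± 0.09, adjusted p = 0.000364).

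Other ADAM and ADAMTS genes moved in both directions. Of 15 listed symbols 7 were tested, and besides Adam8 2 were higher, 2 were lower and 2 were not called (median log2 fold change of these 6, 0.06). Adam10, a widely expressed sheddase that cleaves CD44 among others, was at 318.5, 294 and 318 CPM in KO libraries, against 462, 643 and 594 CPM in WT libraries. It was 1.82-fold lower in KO (log2 fold change -0.85 ± 0.12, adjusted p = 0.00137), the opposite direction from Adam8. Per kb of exon Adam10 had the highest mean level of the 7 tested genes in both genotypes, 63.2 ± 2.83 CPM per kb in KO and 115 ± 19.1 CPM per kb in WT. Adamts10, a secreted protease tied to fibrillin microfibrils, was 2.28-fold lower (7.42 ± 1.74 CPM in KO and 16.96 ± 6.19 CPM in WT, adjusted p = 0.0118). WT replicate 2 was at 24.1 CPM, against 13.2 and 13.6 CPM in WT replicates 1 and 3. Without WT replicate 2 the log2 fold change of Adamts10 was -0.83, against -1.11 with all libraries. Its call held under 19 of 19 alternatives, with adjusted p up to 0.0494. Adamts1, a secreted protease of proteoglycans, was 1.54-fold higher at 3.31 ± 0.110 CPM in KO and 2.15 ± 0.0519 CPM in WT (adjusted p = 0.00343). Adam17, the sheddase of TNF, had a log2 fold change of 0.23 ± 0.07 (adjusted p = 0.0458), and that call was lost under 8 of 19 alternatives, including the runs without any 1 of the KO libraries (adjusted p = 0.0981 to 0.132) and without WT replicate 3 (adjusted p = 0.0776).

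Mmp12 showed the largest ratio between genotypes among the members, at a low level. Mmp12 (ENSMUSG00000049723.14, chromosome 9, 7344381 to 7369499, plus strand) encodes macrophage elastase, the metalloproteinase of macrophages that degrades elastin. It had 128, 131 and 156 reads in KO libraries, against 6, 10 and 6 reads in WT libraries, which is 1.82, 2.19 and 2.34 CPM in KO and 0.119, 0.148 and 0.103 CPM in WT. The WT values lay above the limit that a count of 0 allows (3 reads, 0.0445 to 0.0594 CPM in WT libraries, counting error only). Mean CPM was 17.2-fold higher in KO. The log2 fold change was 2.07 ± 0.12 (adjusted p = 1.38e-05), and on the recovered reads the edgeR quasi-likelihood test, which fits reads and not log2(CPM + 0.5), gave 4.09 (adjusted p = 3.71e-06). The opposite-strand gene Mmp1b shares 2.17% of the exon bases of Mmp12 and was at or under 0.0594 CPM in every library. Mmp12 lies in a cluster of metalloproteinase genes, and the 7 other listed members of the family on chromosome 9 (Mmp3, Mmp7, Mmp8, Mmp10, Mmp13, Mmp20 and Mmp27), within 323 kb of it, had at most 2 reads in any library. Of these, Mmp7 and Mmp20 are listed at 0 in all libraries, which may be rows that were not counted.

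Mmp19 was slightly lower in KO, with a call that depended on the processing. Mmp19 (ENSMUSG00000025355.7, chromosome 10, 128790910 to 128800824, plus strand) encodes a secreted metalloproteinase that cleaves basement membrane proteins. Its level was 6.12, 6.99 and 6.21 CPM in KO libraries, against 7.68, 7.92 and 8.32 CPM in WT libraries. The groups did not overlap, but the gap between KO replicate 2 and WT replicate 1 was smaller than the range within KO. The means were 6.44 ± 0.480 CPM in KO and 7.98 ± 0.322 CPM in WT, 1.24-fold lower in KO (log2 fold change -0.29 ± 0.09, adjusted p = 0.0414). The call was lost under 12 of 19 alternatives, among them edgeR (adjusted p = 0.0650), DESeq2 (adjusted p = 0.0768), quantile normalization (log2 fold change -0.10, adjusted p = 0.508) and the runs without KO replicate 1, 2 or 3 or WT replicate 2 or 3 (log2 fold change -0.35 to -0.26, adjusted p = 0.0518 to 0.152). The opposite-strand gene Tmem198b shares 22.3% of the exon bases of Mmp19 and stood at 4.59 ± 0.319 CPM in KO and 5.42 ± 0.575 CPM in WT. No source used here says whether reads were counted by strand, so reads from that overlap may belong to either gene.

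Mmp14 and Timp1 could not be compared. Mmp14 (chromosome 14, 54431612 to 54445364), which encodes the membrane-type metalloproteinase MT1-MMP, had 1, 0 and 2 reads in KO libraries, against 0, 2 and 1 reads in WT libraries. All of these are at or under the floor of 3 reads, so no fold is given. Timp1 (chromosome X, 20870166 to 20874735), a secreted inhibitor of most metalloproteinases, is listed at 0 in all 6 libraries. Genes used by nearly every cell, such as B2m (the light chain of MHC class I) and Bsg (basigin), are also listed at 0 in all 6, so that a 0 in this table may be a row that was not counted, and nothing is read from it. Of 21 listed metalloproteinase genes, 19 did not pass the filter, and none of those exceeded 0.351 CPM in any library. The highest of the 19 by mean CPM were Mmp2, at 0.336 ± 0.0209 CPM in KO and 0.209 ± 0.0418 CPM in WT, and Mmp11, at 0.316 ± 0.0333 CPM in KO and 0.297 ± 0.0266 CPM in WT.

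Timp2 was the only metalloproteinase inhibitor of the list with a tested level, and it fell. Timp2 (ENSMUSG00000017466.9, chromosome 11, 118301069 to 118355740, minus strand) encodes an inhibitor that blocks active metalloproteinases and also helps MT1-MMP activate pro-MMP2. Its level was 27.4, 32.0 and 25.7 CPM in KO libraries, against 56.4, 53.8 and 58.9 CPM in WT libraries. The highest KO library was far below the lowest WT library. The means were 28.4 ± 3.24 CPM in KO and 56.4 ± 2.59 CPM in WT, 1.99-fold lower in KO (log2 fold change -0.98 ± 0.09, adjusted p = 0.000190). Of the 5 other inhibitors listed, Timp1, Timp3, Timp4 and A2m are listed at 0 in every library, and Reck, a membrane-anchored inhibitor, had reads only in KO replicate 2 (3 reads, 0.0502 CPM). Within a library, the ratio of Mmp19 to Timp2 was 0.228 ± 0.0119 in KO and 0.142 ± 0.00552 in WT in CPM. The groups did not overlap (log2 difference 0.69, exact two-sided permutation p = 0.1, the smallest possible, adjusted p = 0.15 over 3 ratios).

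Cd44, the gene of the hyaluronan receptor, was 2.63-fold higher in KO, and many genes of its chromosome were higher too. Cd44 (ENSMUSG00000005087.17, chromosome 2, 102811141 to 102901665, minus strand) stood at 437, 435 and 421 CPM in KO libraries, against 152, 167 and 172 CPM in WT libraries. The gap between the groups was larger than any WT value, and the spread within each group was small. The means were 431 ± 8.65 CPM in KO and 163.7 ± 9.98 CPM in WT (log2 fold change 1.40 ± 0.07, adjusted p = 4.75e-06). Most tested genes of chromosome 2 were called higher, with a median log2 fold change of 0.34 over 863 tested genes and 503 of them called higher. The nearest tested genes on either side of Cd44, Trim44 and Pdhx, had log2 fold changes of 0.30 (adjusted p = 0.0378) and 0.50 (adjusted p = 0.000776). The call of Trim44 was lost when any 1 KO library or WT replicate 3 was left out (adjusted p = 0.0639 to 0.118). Relative to the median of chromosome 2 in the same library, the log2 fold change of Cd44 was 1.08 (adjusted p = 1.94e-05), while neither neighbour was called (0.18 for Pdhx and -0.012 for Trim44). Of the 863 genes, 11 including Cd44 itself had a log2 fold change as high. The other tested members lie on chromosomes whose medians were between -0.06 and -0.02. Of the 16 nearest tested genes flanking the tested members, 5 were called, Trim44 and Pdhx among them, against 30.4% of all tested genes. The other called genes lie beside Spp1, Plau and Timp2 and moved in the direction of that member. The cause was not tested.

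**Figure D2:**
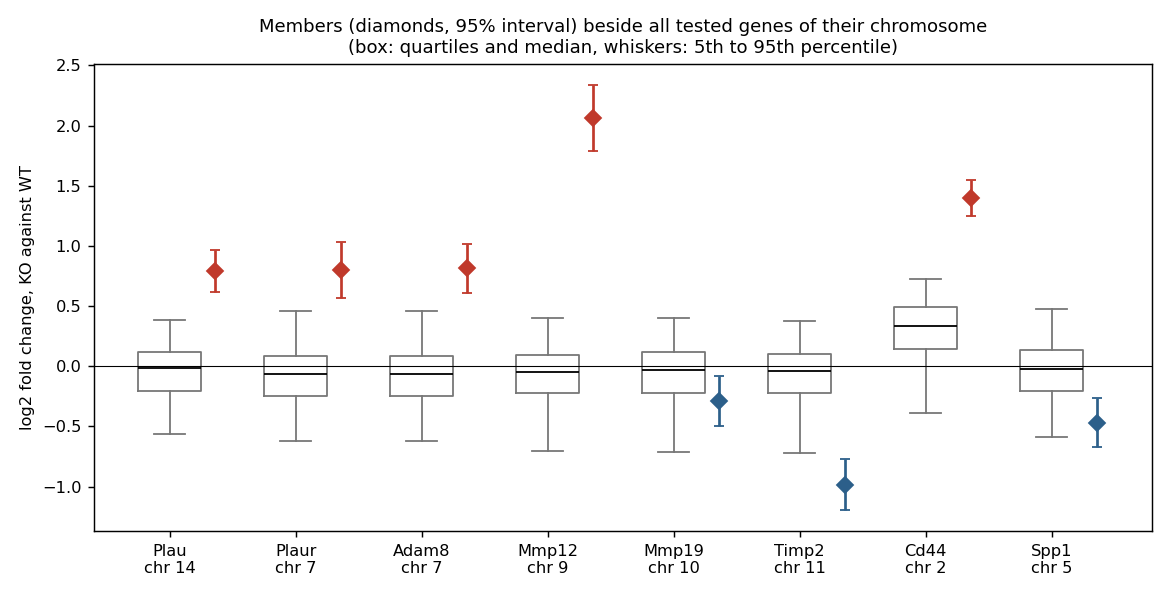
Log2 fold change, KO against WT (vertical axis), of each tested member (diamond with 95% interval, red for higher and blue for lower in KO) beside all tested genes of its chromosome (box with quartiles and median, whiskers from the 5th to the 95th percentile). The box of chromosome 2 lies above 0, with its median at 0.34, and Cd44 lies above its upper whisker, while Mmp19 and Spp1 lie within the whiskers of their chromosomes.

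Other genes listed with CD44 and hyaluronan, not all of which handle hyaluronan, changed in both directions. Of 20 listed genes that have a row, 13 were tested, and besides Cd44 2 were higher, 4 were lower and 6 were not called (median log2 fold change of these 12, 0.06). Stab1, which encodes the scavenger receptor stabilin-1, was at 7.88, 8.47 and 9.87 CPM in KO libraries, against 1.31, 1.90 and 1.59 CPM in WT libraries. It was 5.46-fold higher in KO (log2 fold change 2.14 ± 0.13, adjusted p = 2.13e-05). Tmem2, a hyaluronidase of the cell surface, was at 10.8, 9.89 and 11.2 CPM in KO libraries, against 31.3, 34.6 and 30.1 CPM in WT libraries. It was 3.01-fold lower in KO (log2 fold change -1.54 ± 0.09, adjusted p = 1.24e-05), and the lysosomal hyaluronidase Hyal1 was 1.58-fold lower (7.99 ± 0.642 CPM in KO and 12.6 ± 1.80 CPM in WT, adjusted p = 0.00552). Moesin, encoded by Msn, which links CD44 to actin, was 1.25-fold higher (899 ± 7.799 CPM in KO and 718 ± 1.63 CPM in WT, adjusted p = 0.00381). The other 2 genes called lower, named after their values were seen, were the hyaluronan synthase gene Has3 (log2 fold change -0.59, adjusted p = 0.0404) and Srgn, which encodes the proteoglycan serglycin (log2 fold change -0.54, adjusted p = 0.0109). Has3 passed the filter through its WT libraries only and so had to differ. Its call was lost when any 1 KO library was left out (adjusted p = 0.0703 to 0.128) and with quantile normalization (log2 fold change -0.15, adjusted p = 0.4998), and its log2 fold change was -0.39 without WT replicate 2 and -0.91 in edgeR.

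Spp1, the most abundant member, was lower in KO. Spp1 (ENSMUSG00000029304.14, chromosome 5, 104435118 to 104441050, plus strand) was at 942, 947 and 1016 CPM in KO libraries, against 1191.5, 1430.0 and 1407.5 CPM in WT libraries. The groups did not overlap, and WT replicate 1 was the lowest WT library. The means were 968 ± 41.3 CPM in KO and 1343 ± 131.7 CPM in WT, 1.39-fold lower in KO (log2 fold change -0.47 ± 0.09, adjusted p = 0.00538). A same-strand gene of unclear status that is not a row of the table, Gm42793, shares 18.8% of its exon bases. The ratio of Spp1 to Cd44 within a library was 2.25 ± 0.143 in KO and 8.19 ± 0.374 in WT in CPM, a log2 difference of -1.87 without overlap between groups (exact two-sided permutation p = 0.1, adjusted p = 0.15 over 3 ratios).

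Integrin receptors of osteopontin were lower or not called. Of 11 listed genes 8 were tested, and besides Spp1 0 were higher, 3 were lower and 4 were not called (median log2 fold change of these 7, -0.31). None of the 7 was higher at an unadjusted p under 0.05 in limma, edgeR or DESeq2. Itgb3, the beta-3 chain of the osteopontin receptor formed with the alpha-v chain, was at 0.511, 0.418 and 0.720 CPM in KO libraries, against 6.18, 6.75 and 5.32 CPM in WT libraries. It was 11.1-fold lower in KO (log2 fold change -2.65 ± 0.14, adjusted p = 8.77e-06). Itgb3 passed the filter through its WT libraries only and so had to differ, which leaves 2 lower receptor genes that were not selected in that way. Itgav, the alpha-v chain itself, was at 132 ± 5.10 CPM in KO and 176 ± 25.3 CPM in WT (log2 fold change -0.40 ± 0.10, adjusted p = 0.0218), a call lost without KO replicate 1, KO replicate 2 or WT replicate 3 (adjusted p = 0.0736 to 0.0778). Itgav lies on chromosome 2, whose median was 0.34, and relative to that median its log2 fold change was -0.72 (adjusted p = 0.000758). Itgb5 had a log2 fold change of -0.31 ± 0.09 (adjusted p = 0.0351), lost under 8 of 19 alternatives, including the runs without KO replicate 1, KO replicate 3 or WT replicate 3 (adjusted p = 0.0863 to 0.129). Itga4, whose integrin also binds osteopontin, was named after its values were seen, at 2537 ± 299 CPM in KO and 2863 ± 690.1 CPM in WT (log2 fold change -0.15, adjusted p = 0.558). It lies on chromosome 2 too, and relative to the median there the log2 fold change was -0.46 (adjusted p = 0.0692). The count of 3 lower genes fell to 1 without KO replicate 1 or without WT replicate 3, and without WT replicate 1 the count of higher genes was 1.

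Beside Spp1 and Itgb3, both of which are also expressed by osteoclasts, the 7 listed osteoclast markers summed to 62.0 to 66.3 CPM in KO libraries and 365 to 373 CPM in WT libraries. Most of this was Ctsk, the gene of cathepsin K, at 55.0 ± 2.81 CPM in KO and 365 ± 4.62 CPM in WT (log2 fold change -2.72 ± 0.06, adjusted p = 3.44e-07). Of the 7, 2 were tested, and the other one, Atp6v0d2, a subunit of the proton pump, was 2.49-fold higher in KO (adjusted p = 0.000454). The rest were under 1 CPM in every library. Acp5 was at 0.236 CPM in KO and 0.642 CPM in WT, and Dcstamp at 0.495 and 0.701 CPM, both without overlap. Ocstamp, at 0.754 CPM in KO and 0.646 CPM in WT, overlapped, and Oscar had at most 2 reads in any library. The calcitonin receptor gene Calcr had 1 read, in KO replicate 3, and none of the 7 was at 0 in all libraries. Their part in the values of Spp1 and Itgb3 was not tested. In such bulk RNA, fewer cells of a type and less RNA per cell cannot be told apart.

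Proteases that activate metalloproteinases, and membrane proteins that hold them, gave 2 lower genes and 0 higher among 6 tested of 9 listed (median log2 fold change -0.18). None of the 6 was higher at an unadjusted p under 0.05 in limma, edgeR or DESeq2. Furin, the convertase that activates MT1-MMP, was at 99.9, 109 and 106 CPM in KO libraries, against 154, 130.5 and 126 CPM in WT libraries (log2 fold change -0.38 ± 0.09, adjusted p = 0.0136), a call lost without KO replicate 1 (adjusted p = 0.0648), where 0 genes of the list were called. Cd9, a tetraspanin, had a log2 fold change of -0.23 ± 0.06 (adjusted p = 0.0265), and the call was lost under 9 of 19 alternatives, among them each run without a KO library and without WT replicate 2 or 3 (adjusted p = 0.0556 to 0.0861). Cd9 lies on chromosome 6, where 155 tested genes were lower and 30 higher, and relative to the median there its log2 fold change was -0.07 (adjusted p = 0.507). Over all lists, 35 genes other than the members were tested, of which 5 were higher, 11 lower and 19 not called; without KO replicate 1 the calls numbered 10 and not 16. Of the 35, the share called higher was near that of all tested genes (13.5%) and the share called lower was above it (16.9%), with Has3 and Itgb3 among the 11. Their median log2 fold change was -0.09, against -0.02 for all tested genes.

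**Figure D3:**
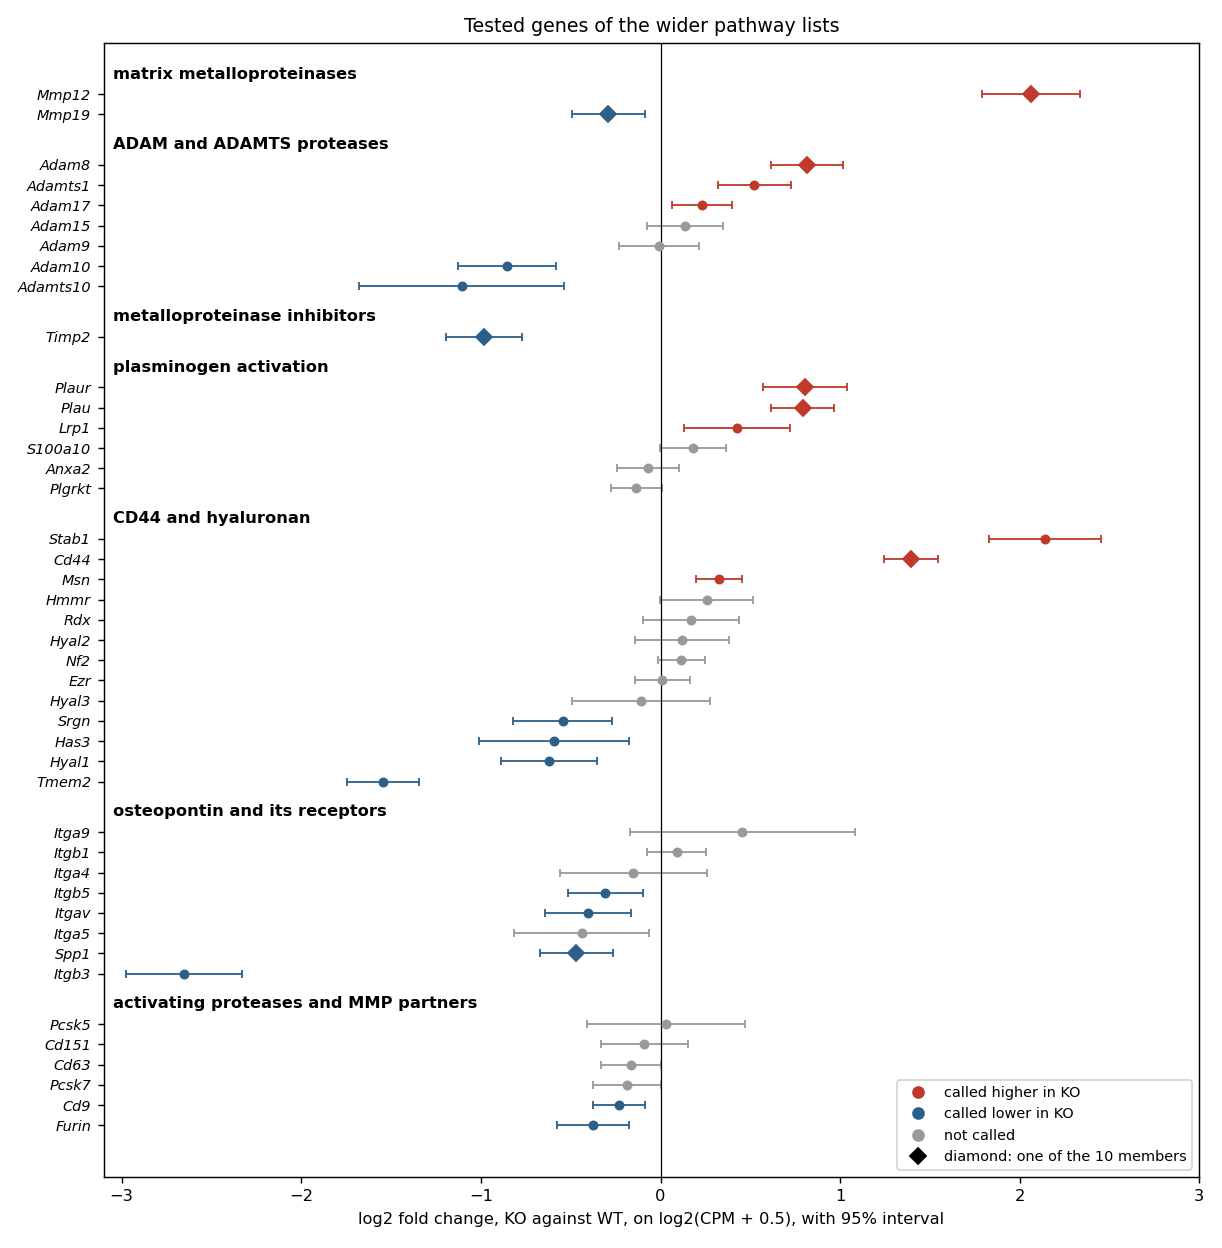
Log2 fold change, KO against WT, on log2(CPM + 0.5) (horizontal axis, with 95% interval) of every tested gene of the pathway lists; red was called higher in KO, blue lower, grey not called, and diamonds are members. Plau, Plaur, Adam8, Cd44 and Mmp12 lie right of 0 and Timp2, Mmp19 and Spp1 left of it, and Itgb3 has the lowest value, -2.65.

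Levels of different genes were compared per length, as CPM per kb of exon (the union of all annotated exons). In KO cells the order was Spp1 (587 ± 25.1), Cd44 (63.6 ± 1.28), Plau (28.4 ± 1.101), Adam8 (21.03 ± 1.73), Timp2 (7.28 ± 0.831), Plaur (5.89 ± 0.0172), Mmp19 (1.82 ± 0.136) and Mmp12 (0.292 ± 0.0372). In WT cells it was Spp1 (815 ± 79.9), Cd44 (24.2 ± 1.47), Plau (16.3 ± 1.26), Timp2 (14.5 ± 0.664), Adam8 (11.9 ± 0.931), Plaur (3.31 ± 0.440), Mmp19 (2.26 ± 0.0910) and Mmp12 (0.0170 ± 0.00320). The libraries of neighbours in these orders did not overlap in either genotype. The closest neighbours were Plau and Timp2 in WT, where the lowest library of Plau (15.3) was just above the highest of Timp2 (15.1). Adam8 stood above Timp2 in every KO library and below it in every WT library. Per length, Spp1 was 8.87 to 9.92 times the level of Cd44 in KO libraries and 32.1 to 35.2 times in WT libraries.

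**Figure D4:**
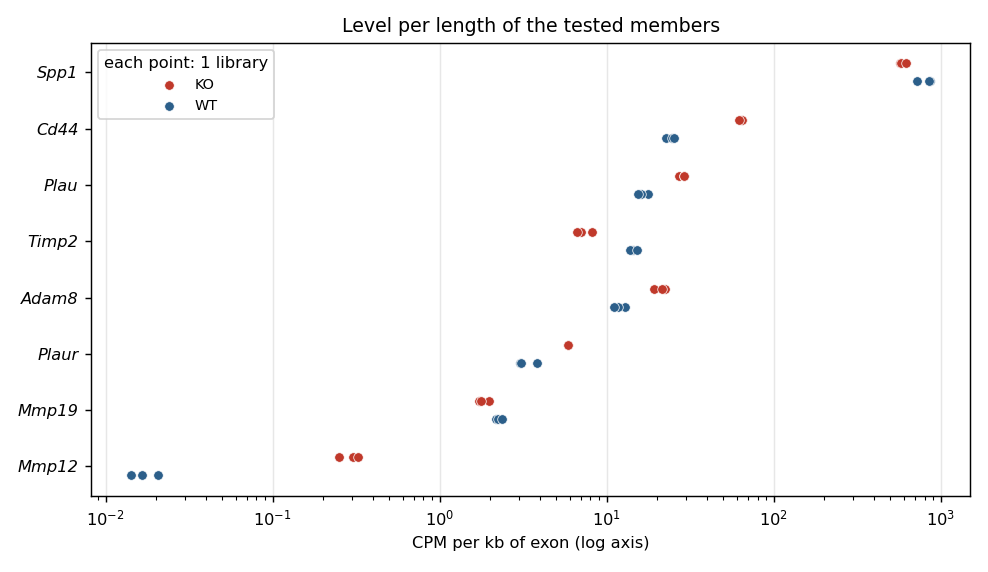
CPM per kb of exon (horizontal log axis) of the 8 tested members, ordered by their mean in WT; each point is 1 library, with KO (red) drawn above WT (blue) in each row. Spp1 is the highest row in both genotypes and Mmp12 the lowest, and the rows of Timp2 and Adam8 are in opposite order in KO and WT.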

How the data were processed

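The authors deposited 1 table of CPM per gene symbol, with a column for each of 6 libraries, made from RNA prepared with a KAPA mRNA kit and sequenced as paired 125-base reads, per the labels' protocols. Trim Galore, FastQC, STAR 2.6.0a, Picard, SAMtools and mm10 are named in the submitters' processing notes. The sources used here name neither the counting tool nor its strand setting.

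Every CPM value was a whole multiple of 1 read (100% within 0.01 read), and reads were recovered from these steps. log2(CPM + 0.5) was tested with limma 3.58.1 (R 4.3.3, mean-variance trend, no covariate), KO against WT, over the 10614 genes that reached 1 CPM in 3 or more of 6 libraries, with Benjamini-Hochberg adjustment and a call at an adjusted p under 0.05. It called 3230 genes. On the recovered reads the quasi-likelihood test of edgeR 4.0.16 called 3359 and DESeq2 1.42.0 called 3758. Ratios were compared with exact two-sided permutation tests (scipy 1.17.1). The procedure was also run on simulated counts of independent genes with the same dispersion. That setting is simpler than these data, so it checks the code and not the calls made here. Symbols were matched to GENCODE M21 for position and exon length, 24305 directly and 137 by an older symbol, and 406 were not matched. A count of 0 allows 3 reads, which is 0.0426 to 0.0594 CPM, and such limits cover counting error only.

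By the naming rule, the text names the 10 members, Apobec1, Rn45s, genes overlapping a member, and, of each list, the called genes up to the 4 with the lowest adjusted p or the 2 with the highest mean CPM where none was called. Overlapping genes that share few or no exon bases with a member are left out. Outside the rule, it names tested neighbours of Cd44, cell type markers, B2m and Bsg, listed metalloproteinase and inhibitor genes with few or no reads, and Has3, Srgn, Anxa2, S100a10 and Itga4, all after their values were seen. The members and lists were chosen with earlier results of these data known. Alternatives were other pseudocounts, filters and scalings, values relative to the chromosome median, other tools, a replicate block and each library left out. The ratios without each library were added after the data were seen.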

Additional observations from a re-analysis of the deposited data

How the results depend on the processing

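Cd44, Spp1, Plau, Plaur, Adam8 and Timp2 kept their direction and their call under 19 of 19 alternatives, and Mmp12 under the 18 that tested it. A minimum of 5 CPM removed Mmp12, which left 4 members higher. Mmp12 passed the main filter through its KO libraries only and so had to differ. Its calls under that filter, also within the counts of 5 higher members below, therefore do not add support. Log2 fold changes ranged from 1.08 to 1.43 for Cd44, -0.55 to -0.39 for Spp1, 0.75 to 0.85 for Plau, 0.75 to 0.93 for Plaur, 0.76 to 0.88 for Adam8, -1.07 to -0.92 for Timp2 and 1.47 to 4.12 for Mmp12. With 1 library left out in turn, 5 members were higher each time, 2 to 3 were lower, 1973 to 3761 genes were called over all tested genes, and 10 to 18 of the other listed genes were called. KO and WT libraries of the same number deviated from their group means with correlations of -0.25, -0.64 and -0.17 over genes. No library correlated best with its own number. The highest correlations were 0.61 between KO replicate 3 and WT replicate 2, and 0.58 between KO replicate 2 and WT replicate 1. Why these deviated together was not tested. The labels state no pairing, so the numbers served as a block in an alternative only. A replicate block gave 2009 called genes, with 5 members higher and 2 lower. Among genes with no call or near the threshold, 3 changed sign: Tmem198b with quantile normalization (0.014), Trim44 relative to its chromosome median (-0.012) and Itga4 without WT replicate 2 (0.011). With 1 library left out in turn, the log2 fold change of Itga4 ran from -0.35 to 0.011, and over all alternatives its lowest value was -0.46, relative to its chromosome median. For Mmp12 and the genes under 1 CPM, depth limits the precision to a few reads in WT libraries. The cause of the changes between alternatives was not tested.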
